A study of Mus musculus with 10 samples.

Results

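The angiopoietin-Tie pathway was followed here through 8 genes: the ligands Angpt1, Angpt2 and Angpt4, the receptors Tek and Tie1, the phosphatase gene Ptprb, the angiopoietin-like gene Angptl6 and the matrix gene Svep1. They were found by name among the 55385 gene identifiers of the deposited tables, and all 8 were present. RNA was sequenced from liver endothelial cells of mice in 10 libraries, 5 titled Alk1-HEC-KO with the genotype given as KO and 5 titled Control with the genotype given as WT. Acvrl1, the gene targeted, codes for the BMP9 and BMP10 receptor ALK1 of endothelium. Both groups were prepared alike: cells other than hepatocytes were taken from a density gradient, and endothelial cells were drawn out with magnetic beads against CD146, the product of Mcam. What drove the deletion, in which cells it acted, the alleles and the age of the mice are not stated in the labels. Nothing in the labels says that each library came from its own mouse, so the p-values measure the spread between these libraries, which may be technical.

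Tek encodes TIE2, a receptor tyrosine kinase of endothelial cells. Angiopoietin 1, made mainly by cells around the vessel, activates TIE2 and steadies the vessel wall, whereas angiopoietin 2, made by endothelial cells themselves, blocks or activates it depending on context. TIE1 binds no angiopoietin tightly but joins TIE2 in a complex, and the phosphatase VE-PTP, encoded by Ptprb, removes phosphate from TIE2. Active TIE2 signals through AKT, which holds FOXO transcription factors out of the nucleus.

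The libraries held 23489494 to 23602771 estimated counts each. Mitochondrial genes took 4.27% to 6.43% of the counts in controls and 3.45% to 4.32% in the other group, with control 4 the highest at 6.43% and also the library with the fewest genes detected (22595, against 23031 to 23596 in the rest). Acvrl1 was at 114 to 136 CPM (counts scaled to a common library total) in controls and at 239 to 258 CPM in the libraries titled Alk1-HEC-KO. It was thus higher, not lower, in the group labelled as knockout (log2 fold change 0.96 ± 0.05 SE, edgeR adjusted p = 1.7e-07). Which exons the reads came from cannot be seen in a count per gene. Since this check ran against the label, these 5 are named knockout-labelled libraries throughout. All 8 pan-endothelial markers were detected, of which 4 rose (Pecam1, Emcn, Cldn5 and Mcam) and 4 did not pass, and their summed level was 6270 to 7140 CPM in controls and 7410 to 8000 CPM in knockout-labelled libraries. Of the 8 sinusoidal markers 7 fell (sum 19700 to 22300 against 13300 to 15100 CPM), and of the 8 central vein markers 7 fell (sum 2100 to 2950 against 887 to 1110 CPM). In such bulk RNA, fewer cells of a type and less RNA per cell cannot be told apart.

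Of the 8 genes, 7 passed the filter on low counts and were tested, and 4 of these were called at an adjusted p under 0.05: Angpt1 and Tie1 rose, and Tek and Ptprb fell. Angpt2, Angptl6 and Svep1 were tested and did not pass, and Angpt4 was too low to test. Over all 15043 genes tested, 19.7% were called (10.6% higher and 9.08% lower). For the same 4 genes the values of the groups did not overlap, as was so for 15.4% of all genes tested. With limma on log2(TPM + 1) in place of counts, 1840 of all genes were higher and 685 lower, against 1593 and 1366 in the main test, and the same counts of 2 higher and 2 lower held among the 8 genes.

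**Figure D1:**
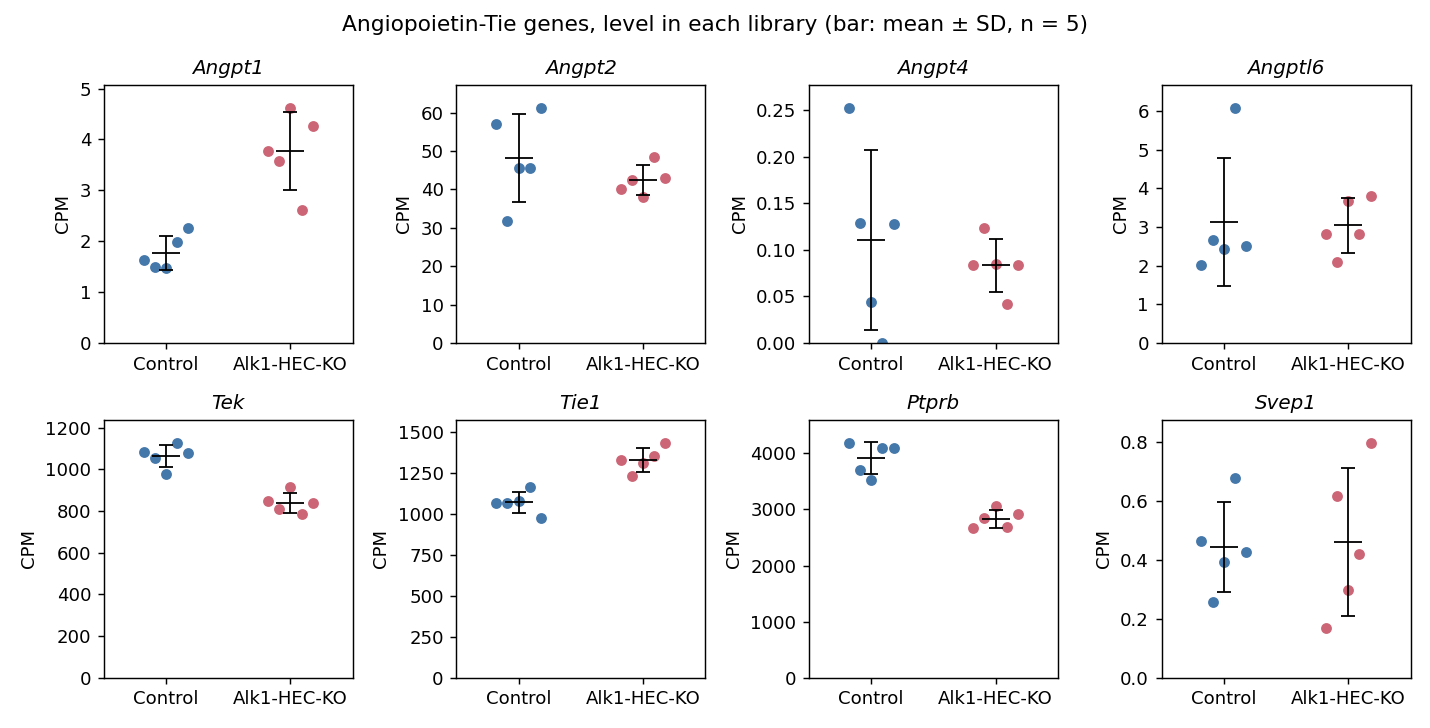
Level of each of the 8 genes in CPM (vertical axis, from 0) in the 5 control (blue) and 5 knockout-labelled (red) libraries, with the mean and SD of each group as a bar. The points of the groups are apart for Angpt1, Tek, Tie1 and Ptprb and overlap for Angpt2, Angpt4, Angptl6 and Svep1, where control 4 stands alone at 6.07 CPM of Angptl6.

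Angpt1, the activating ligand of TIE2, was the member with the largest change and was expressed at a low level. The gene (ENSMUSG00000022309.9) lies on the minus strand of chromosome 15, positions 42424723 to 42676977 (GRCm38), with up to 9 exons in a transcript. Measured levels were 1.64, 1.5, 1.48, 1.98 and 2.26 CPM across control libraries 1 to 5 and 3.78, 3.57, 4.61, 2.61 and 4.27 CPM in knockout-labelled libraries 1 to 5. Every knockout-labelled library lay above every control, the nearest being knockout-labelled library 4 and control 5. Angpt1 rose 2.12-fold, from 1.77 ± 0.339 to 3.77 ± 0.766 CPM (SD, n = 5 each; log2 fold change 1.08 ± 0.19 SE, 95% interval 0.67 to 1.5, edgeR adjusted p = 0.0015). The estimated counts behind these values were 34 to 52.9 per control library and 62.1 to 109 per knockout-labelled library. On the log2(TPM + 1) scale, which understates the change of low genes, the difference was 0.58. A predicted gene on the other strand, Gm17473, shares 737 exon bases with Angpt1 and was at 0.00854 and 0.0335 CPM.

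Since perivascular cells and platelets are known sources of angiopoietin 1, the markers of those cells stand beside this result. Of 10 stellate cell markers 2 rose (Ngfr and Rgs5) and 8 did not pass, and their summed level was 83.5 to 120 CPM in controls and 90.4 to 166 CPM in knockout-labelled libraries. Of 8 smooth muscle and pericyte markers 2 rose and 6 did not pass, with sums of 73.2 to 167 and 241 to 296 CPM. The members that rose were Kcnj8 (log2 fold change 1.95) and Abcc9 (1.64), the subunits of a potassium channel. Contractile genes of smooth muscle did not pass: Acta2 was at 24.5 ± 8.17 and 24.7 ± 4.51 CPM and Myh11 at 9.97 ± 5.01 and 8.42 ± 1.95 CPM (SD, with n = 5 per group; edgeR quasi-likelihood adjusted p = 0.98 and 0.67). Of 8 fibroblast markers 6 rose (Col1a1, Col1a2, Col3a1, Dpt, Pi16 and Gsn) and 2 (Dcn and Lum) did not pass, with sums of 125 to 194 and 235 to 306 CPM. Dcn was at 67.1 ± 24.8 and 76.2 ± 22.6 CPM (SD, with n = 5 per group; edgeR quasi-likelihood adjusted p = 0.7). Of 9 platelet markers 5 were tested, of which 2 fell (Gp1ba and Clec1b) and 3 did not pass, with sums of 238 to 349 and 139 to 204 CPM. Most of that sum was Clec1b, at 256 ± 45.8 and 158 ± 22.2 CPM (SD, n = 5 each), so its fall was mainly that of Clec1b. Pf4 was at 4.32 ± 0.902 and 4.54 ± 0.908 CPM (SD, with n = 5 per group; edgeR quasi-likelihood adjusted p = 0.82). No marker of these lists was at 0 in every library. The call of Ngfr ended under 9 of 22 alternatives (adjusted p from 0.051 to 0.081), among them those that left out control 1, 2, 3 or 5, or library 1, 3 or 5 of the knockout-labelled group, that of Rgs5 with no filter (adjusted p = 0.077), that of Dpt under 3 (0.051 without knockout-labelled library 4) and that of Pi16 under 3 (0.064 with no filter). The part of these cells in the rise of Angpt1 was not tested.

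**Figure D2:**
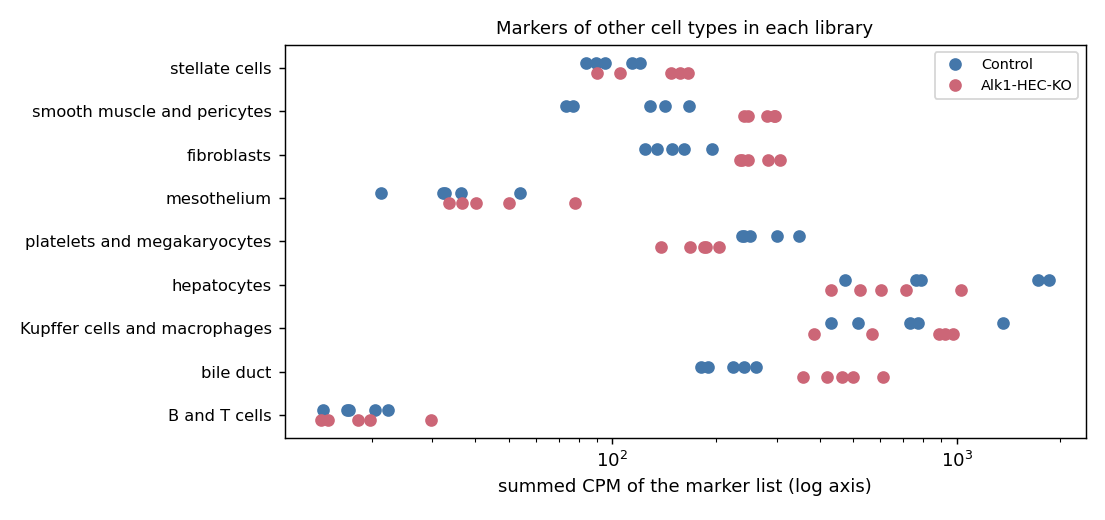
Summed CPM of the marker genes of other cell types (horizontal log axis) in each control (blue) and knockout-labelled (red) library. The sums of smooth muscle and pericyte, fibroblast and bile duct markers lie apart and higher in knockout-labelled libraries. Platelet sums, made up mostly of Clec1b, lie apart and lower. Those of stellate cells, mesothelium, hepatocytes, macrophages and lymphocytes overlap, although 3 of the 9 hepatocyte markers fell.

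Angpt2, the ligand that endothelial cells store and release, did not pass the test. It lies on the minus strand of chromosome 8, positions 18690263 to 18741562, inside the gene Mcph1 on the plus strand, with which it shares 0 exon bases. Angpt2 was at 57.1, 31.8, 45.4, 45.6 and 61.1 CPM across control libraries 1 to 5 and at 40.0, 42.4, 38.0, 48.4 and 43.0 CPM in knockout-labelled libraries 1 to 5. The knockout-labelled values lay within the range of the controls, which varied more (coefficient of variation 23.9% against 9.21%). The log2 fold change was -0.19 ± 0.15 SE, with a 95% interval of -0.53 to 0.15 (edgeR adjusted p = 0.45). Without control 2, the lowest control, it was -0.31 (adjusted p = 0.063), the smallest p among the 22 alternatives.

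Angpt4, the third ligand of TIE2, was near the limit of detection. It lies on the plus strand of chromosome 2, positions 151911210 to 151945337. Its counts were 6, 3, 1, 0 and 3 in controls 1 to 5 and 2, 3, 2, 1 and 2 in knockout-labelled libraries 1 to 5. In all there were 13 and 10 counts, a ratio of 0.769 with an exact 95% counting interval of 0.302 to 1.90, which covers counting error only. The 0 of control 4 allows up to 0.127 CPM at 3 counts, taken over the plain count total of the library without the scaling used for CPM elsewhere. Ratios inside the 95% interval are not excluded by these counts.

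Tek, the gene of TIE2, was lower in all knockout-labelled libraries. Tek (ENSMUSG00000006386.15) lies on the plus strand of chromosome 4, positions 94739289 to 94874976, with up to 23 exons in a transcript. It was at 1082, 1053, 980, 1126 and 1078 CPM across control libraries 1 to 5 and at 849, 808, 915, 784 and 839 CPM in knockout-labelled libraries 1 to 5. The highest knockout-labelled library lay under the lowest control. Tek fell by 0.34 ± 0.06 on the log2 scale (SE; 95% interval -0.47 to -0.22), from 1064 ± 54.0 to 839 ± 49.6 CPM (SD, with n = 5 per group; edgeR quasi-likelihood adjusted p = 0.0012). That is a fall of 1.27-fold from a high level, with a coefficient of variation of 5.07% in controls and 5.92% in knockout-labelled libraries.

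Tie1, the partner of TIE2, went the other way. Tie1 (ENSMUSG00000033191.14) lies on the minus strand of chromosome 4, positions 118471191 to 118490061, also with up to 23 exons. Measured levels were 1067, 1068, 1075, 1162 and 976 CPM across control libraries 1 to 5 and 1330, 1229, 1309, 1352 and 1431 CPM in knockout-labelled libraries 1 to 5. All 5 knockout-labelled libraries lay above all 5 controls. Tie1 rose 1.24-fold (log2 fold change 0.31 ± 0.06 SE, 95% interval 0.18 to 0.45, edgeR adjusted p = 0.0027), from means of 1070 ± 65.9 to 1330 ± 73.1 CPM (SD, n = 5 each).

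Since the paired receptor genes moved in opposite directions, the sequence before their start sites is shown for comparison. RefSeq windows on GRCm38.p6 were given for 5 of the 8 members. The bases printed lie before the RefSeq start and outside every exon of the gene in GENCODE M21, read 5′ to 3′ on the gene's strand, with the core of the ETS factor motif (GGAA, or TTCC on the other strand) in capitals. The Tek sequence is chr4:94739039-94739288 on the plus strand, and that of Tie1 is chr4:118490062-118490099 on the minus strand, short because exons of the gene cover the rest of its window.
Tek: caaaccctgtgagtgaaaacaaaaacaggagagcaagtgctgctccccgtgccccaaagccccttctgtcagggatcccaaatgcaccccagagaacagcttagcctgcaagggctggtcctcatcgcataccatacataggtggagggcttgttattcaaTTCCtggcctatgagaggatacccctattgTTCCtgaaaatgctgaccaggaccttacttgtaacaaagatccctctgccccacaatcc
Tie1: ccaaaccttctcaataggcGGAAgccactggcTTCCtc
Each sequence held 2 matches to the ETS core. Of 32851 RefSeq windows, 93.4% held at least 1 match in 250 bases and 33.3% in 38 bases. The motifs GATAA (GATA factors), GTAAACA (FOXO factors) and GGCGCC (SMAD1 and SMAD5), searched on both strands, had 0 matches in either sequence, against 22.6%, 3.2% and 9.6% of all windows of 250 bases for Tek and 4.3%, 0.5% and 1.1% of those of 38 bases for Tie1. A match to letters is a description of the window and not a binding site.

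Ptprb, the gene of VE-PTP, fell with Tek. Ptprb (ENSMUSG00000020154.10) lies on the plus strand of chromosome 10, positions 116275523 to 116389535, with up to 34 exons in a transcript. It was at 4182, 3697, 3522, 4101 and 4093 CPM across control libraries 1 to 5 and at 2672, 2853, 3055, 2693 and 2914 CPM in knockout-labelled libraries 1 to 5. No knockout-labelled library reached the lowest control. Ptprb fell by 0.47 ± 0.07 on the log2 scale (SE; 95% interval -0.61 to -0.32), a fall of 1.38-fold, from 3919 ± 291 to 2837 ± 160 CPM (SD, with n = 5 per group; edgeR quasi-likelihood adjusted p = 0.00034). Over the 10 libraries, after the mean of each group was taken off, the log2 CPM of Ptprb and Tek varied together (Pearson r = 0.77), as a description of points that share library and depth. The same r was 0.77 for Angpt1 and Tek, 0.70 for Angpt1 and Ptprb, 0.14 for Tie1 and Tek and -0.05 for Tie1 and Ptprb.

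Angptl6, an angiopoietin-related growth factor known from hepatocytes, did not pass. It lies on the minus strand of chromosome 9, positions 20873808 to 20879727. Measured levels were 2.02, 2.66, 2.44, 6.07 and 2.52 CPM across control libraries 1 to 5 and 2.81, 2.10, 3.68, 2.82 and 3.81 CPM in knockout-labelled libraries 1 to 5. Control 4 alone lay above all other libraries. The log2 fold change was -0.04 ± 0.29 SE (95% interval -0.68 to 0.59, edgeR adjusted p = 0.94), and it was 0.33 without control 4 (adjusted p = 0.31). In control 4 the summed hepatocyte markers were at 1856 CPM, the highest of the libraries, against 1720 CPM in control 2, whose Angptl6 level was 2.66 CPM. Of the 9 hepatocyte markers 3 fell and 6 did not pass: Cyp2e1 fell from 146 ± 123 to 14.8 ± 3.95 CPM and Cyp3a11 from 110 ± 83.8 to 12.8 ± 4.84 CPM, both without overlap (SD, with n = 5 per group; edgeR quasi-likelihood adjusted p = 0.0081 and 0.0078). The third, Apoa2 (adjusted p = 0.037), lost its call under 8 of 22 alternatives (0.062 to 0.085). These were no filter and those that left out control 2 or 4 or any single knockout-labelled library. Of the markers that did not pass, Alb was at 471 ± 194 and 447 ± 165 CPM and Cps1 at 17.0 ± 12.5 and 15.3 ± 7.06 CPM (SD, with n = 5 per group; edgeR quasi-likelihood adjusted p = 0.91 and 0.88). Apoa1 and Fgb had log2 fold changes of -1.51 and -1.26 (edgeR adjusted p = 0.08 and 0.21).

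Some markers of stellate cells and fibroblasts were also high in the libraries with high Angptl6, and these were picked after their values were seen. In control 4 the stellate markers Lrat (7.60 CPM), Colec11 (10.6 CPM) and Hand2 (3.42 CPM) were above the other controls, which reached 4.65, 5.51 and 1.62 CPM. The fibroblast marker Dcn was at 110 CPM there, against at most 63.8 CPM in the other controls. Other members of these lists were not highest there. In control 4 the stellate markers Cygb and Des (5.08 and 4.45 CPM) lay within the range of the controls (2.92 to 6.05 and 3.78 to 4.96 CPM). Hgf, at 39.0 CPM in control 4, was nearer the low end of its range (34.7 to 57.9 CPM). The fibroblast markers Gsn (18.5 CPM) and Dpt (0.855 CPM) were lower there than in any other control. Knockout-labelled libraries 3 and 5, the highest of their group for Angptl6, were also its highest for Colec11 (10.3 and 10.5 CPM) and Dcn (89.3 and 109 CPM). The summed stellate markers were highest among controls in control 4 (120 CPM). Among knockout-labelled libraries they were highest in library 1 (166 CPM), where Angptl6 was at 2.81 CPM, ahead of libraries 3 and 5 (158 and 148 CPM). Hgf alone gave 92.4 CPM of the sum in library 1, against 60.9 and 72.1 CPM in libraries 3 and 5. The order of these sums thus rests on Hgf. The parts of hepatocyte, stellate cell and fibroblast RNA, and of the mitochondrial share, in the Angptl6 values were not tested. Angptl6 shares 265 exon bases with A230050P20Rik on the other strand (31.9 and 27.8 CPM), and whether the library kit kept the strand is not given in the sources used here, so its value is uncertain.

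Svep1, a large matrix protein known to bind TIE1, was barely detected. It lies on the minus strand of chromosome 4, positions 58042442 to 58206859, with up to 48 exons in a transcript. Its estimated counts were 6 to 15 per control library and 4 to 19 per knockout-labelled library, and the ranges overlapped. The level was 0.443 ± 0.151 and 0.459 ± 0.25 CPM (SD, n = 5 each; log2 fold change 0.06 ± 0.40 SE, 95% interval -0.81 to 0.92, edgeR adjusted p = 0.94). Differences inside that interval are not excluded, and its width holds the spread between libraries as well as counting error.

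**Figure D3:**
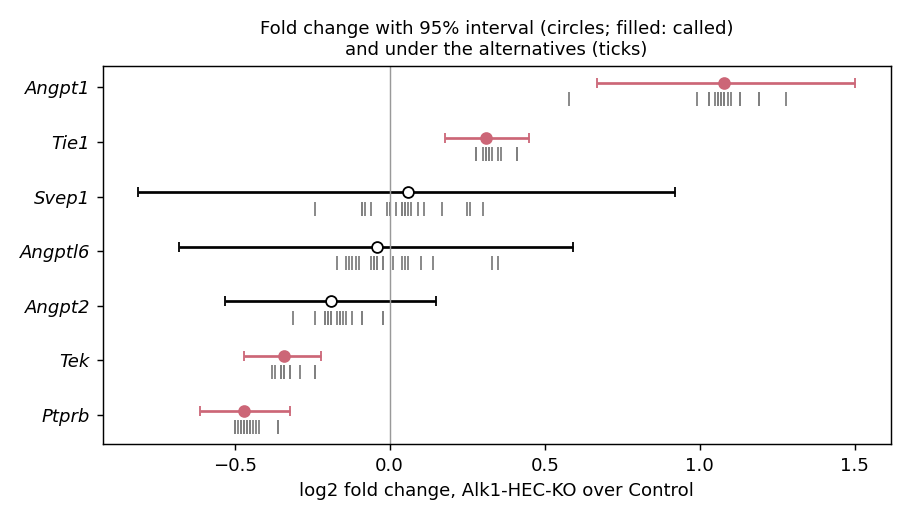
Log2 fold change of each tested gene (horizontal axis, knockout-labelled over control) with its 95% interval, filled where the gene was called, and the value under each alternative as a tick. The intervals of Angpt1, Tie1, Tek and Ptprb stay on 1 side of 0, and the ticks of Angptl6 and Svep1 fall on both sides.

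Levels of different genes were compared in deposited TPM (a share of all transcripts that takes gene length into account). In controls the order was Ptprb (537 ± 61.6 TPM), Tie1 (420 ± 20.9), Tek (380 ± 33.3), Angpt2 (22.0 ± 6.16), Angptl6 (3.37 ± 1.53), Angpt1 (0.687 ± 0.125), Angpt4 (0.0824 ± 0.0746) and Svep1 (0.0729 ± 0.0149; SD, n = 5 each). Tie1 and Tek overlapped there, with Tie1 above Tek in 4 of 5 controls, and so did Angpt4 and Svep1. In knockout-labelled libraries Tie1 came first (559 ± 37.8 TPM), ahead of Ptprb (416 ± 30.9) and Tek (321 ± 21.7; SD, n = 5 each). In all 5 of them Tie1 was above Ptprb and Ptprb above Tek, with no overlap of the neighbouring ranges. In each group the mean TPM of Ptprb, Tie1 and Tek was more than 10 times that of Angpt2, the most abundant ligand of the 8 genes.

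Ratios within a library compared the RNA levels of members. The ratio of Tie1 to Tek in TPM was 1.08, 1.12, 1.21, 1.14 and 0.995 in controls 1 to 5 and 1.72, 1.68, 1.57, 1.90 and 1.88 in knockout-labelled libraries 1 to 5. The groups were apart, with means of 1.11 ± 0.0804 and 1.75 ± 0.139 (SD, n = 5 each). The ratio of Angpt1 to Angpt2, the ligands of opposite reputation, was 0.0238 to 0.0392 in controls and 0.0464 to 0.1 in knockout-labelled libraries, also apart (means 0.0323 ± 0.00623 and 0.0742 ± 0.0192; SD, n = 5 each). The ratio of Ptprb to Tek was 1.41 ± 0.0481 in controls and 1.30 ± 0.0569 in knockout-labelled libraries (SD, n = 5 each), and the ranges met at 1.35. These ratios are descriptions and were not tested.

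**Figure D4:**
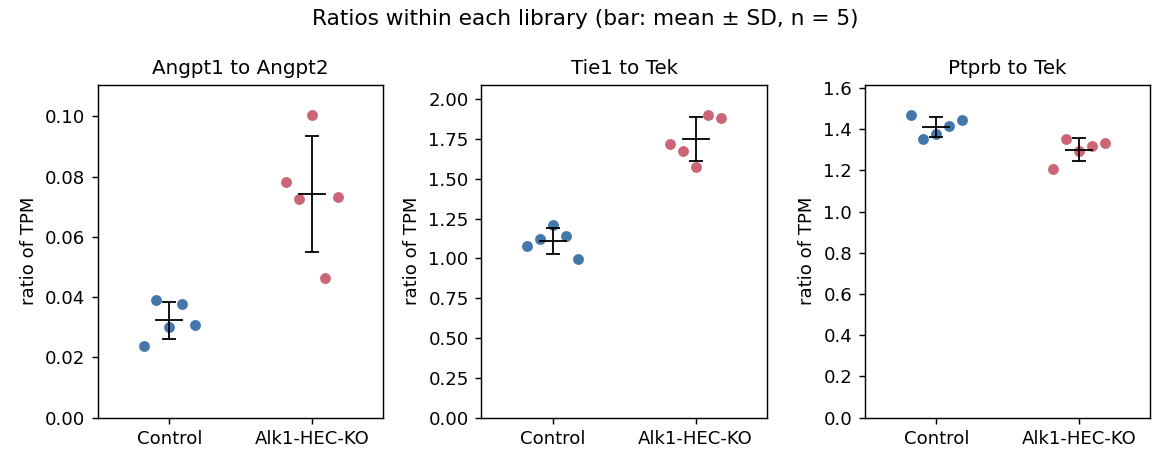
Ratio of TPM values within each library (vertical axis, from 0) for 3 pairs of genes, with group mean and SD. The Tie1 to Tek ratio lies from 0.995 to 1.21 in controls and from 1.57 to 1.90 in knockout-labelled libraries, whereas the Ptprb to Tek ratios touch.

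Around the 8 genes, 7 lists of 76 pathway genes were read, of which 73 were tested; 14 were higher and 7 lower. Over all genes tested 19.7% were called, 10.6% higher and 9.08% lower, and the share called was 15% of the adaptors and kinases, 28.6% of the transcription factors, 30.8% of the FOXO targets, 33.3% of the integrins and proteases, 71.4% of the 7 junction genes, 0% of the 2 phosphatases and 20% of the 5 angiopoietin-like genes. Lists this short are described by these shares, with no test. Among 20 adaptors and kinases that carry the signal of TIE2, 2 rose, 1 fell and 17 did not pass, with a median log2 fold change of 0.05 (0 over all genes tested). Dok1, a docking protein, fell by 0.47 ± 0.06 on the log2 scale (SE; edgeR adjusted p = 0.00017). Grb7, an adaptor, rose by 0.68 ± 0.19 and Ptpn11, the phosphatase SHP2, by 0.20 ± 0.05. The call of Grb7 ended under 10 of 22 alternatives (adjusted p from 0.05 to 0.1), among them those that left out control 1, 3 or 5, or library 1, 2 or 3 of the knockout-labelled group (0.051, 0.05, 0.055, 0.069, 0.07 and 0.067). That of Ptpn11 ended under 7 (0.051 to 0.14), among them those without control 4 (0.053) or knockout-labelled library 1 or 5 (0.057 and 0.051). The kinases Akt1 and Akt2 had log2 fold changes of 0.01 ± 0.06 and -0.03 ± 0.06 (SE; edgeR adjusted p = 0.9 and 0.78).

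Transcription factors known to act on these genes, or to be governed by TIE2, moved in part. Of 14 tested 1 rose, 3 fell and 10 did not pass, with a median of 0.08. Elf1, an ETS factor that acts on Tek, fell by 0.42 ± 0.07 and Gata2 by 0.46 ± 0.08 on the log2 scale (SE; edgeR adjusted p = 0.00073 and 0.0015). Foxc1 fell by 0.57 ± 0.13 and Foxo3 rose by 0.38 ± 0.07. Gata2 was not called by limma fitted to log2 TPM (adjusted p = 0.068 and 0.066 with pseudocounts of 1 and 0.1), nor was Foxc1 with the pseudocount of 0.1 (0.06). Foxo1, the factor through which TIE2 restrains Angpt2, was at 144 ± 14.0 and 126 ± 11 CPM (SD, with n = 5 per group; edgeR quasi-likelihood adjusted p = 0.098).

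Of 13 genes known as FOXO targets 3 rose, 1 fell and 9 did not pass, with a median of 0.17. Klf6 rose by 0.56 ± 0.06, Pik3ip1, an inhibitor of PI3 kinase, by 0.57 ± 0.13 and Ccng2, an atypical cyclin, by 0.33 ± 0.06 on the log2 scale (SE; edgeR adjusted p = 2.7e-05, 0.0074 and 0.0021). Sesn3 fell by 0.60 ± 0.14, a call that ended with limma on log2 TPM (adjusted p = 0.095 and 0.11 with pseudocounts of 1 and 0.1). The list thus went both ways.

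Among 12 integrins, proteases and other partners of the receptors and of SVEP1, 3 rose, 1 fell and 8 did not pass, with a median of 0.11. Timp3, an inhibitor of the proteases that shed receptors, rose from 1227 ± 89.2 to 1718 ± 64.8 CPM, Adam10, such a protease, from 277 ± 15.8 to 382 ± 15.6 CPM, and the integrin gene Itga9 from 599 ± 49.6 to 794 ± 61.8 CPM (SD, with n = 5 per group; edgeR quasi-likelihood adjusted p = 0.00011, 6.1e-05 and 0.0016). Pear1, a receptor of SVEP1, fell by 0.20 ± 0.05 on the log2 scale (SE; edgeR adjusted p = 0.024). That call ended under 7 of 22 alternatives, with library size alone (0.091), with limma on log2 TPM (0.4 with either pseudocount), with the replicate number as a block (0.059), without control 4 (0.061), without knockout-labelled library 1 (0.051) and without controls 4 and 5 (0.086).

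Of 7 junction proteins and substrates of VE-PTP 4 rose, 1 fell and 2 did not pass, with a median of 0.22. Jup, or plakoglobin, which links VE-cadherin to the cytoskeleton, rose from 183 ± 26.3 to 335 ± 27.9 CPM, and Plcg1, a phospholipase, from 169 ± 15.6 to 252 ± 7.73 CPM (SD, with n = 5 per group; edgeR quasi-likelihood adjusted p = 5.3e-05 and 3.7e-05). Ctnnb1, or beta-catenin, rose by 0.39 ± 0.07, and Kdr, the VEGF receptor that VE-PTP also acts on, fell by 0.33 ± 0.07 on the log2 scale (SE). Fgd5, a regulator of the cytoskeleton in endothelial cells, rose by 0.22 ± 0.07 (SE), a call that ended under 12 of 22 alternatives (adjusted p from 0.057 to 0.2), among them each that left out 1 library other than control 1 or knockout-labelled library 4. Kdr was not called by limma fitted to log2 TPM (adjusted p = 0.057 and 0.056 with pseudocounts of 1 and 0.1). Cdh5, VE-cadherin itself, was at 1717 ± 93.2 and 1914 ± 70.8 CPM (SD, with n = 5 per group; edgeR quasi-likelihood adjusted p = 0.066).

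The phosphatases most like VE-PTP were low. Ptprj was at 15.0 ± 3.61 and 16.7 ± 3.71 CPM and Ptpro at 1.23 ± 0.396 and 1.12 ± 0.442 CPM (SD, with n = 5 per group; edgeR quasi-likelihood adjusted p = 0.64 and 0.79), and Ptprh and Ptprq did not pass the filter. Of 5 tested angiopoietin-like genes 1 rose and 4 did not pass, with a median of 0.33. Angptl4, an inhibitor of lipoprotein lipase, rose by 2.19 ± 0.33 on the log2 scale (SE), from 2.92 ± 0.822 to 13.3 ± 6.08 CPM (SD, with n = 5 per group; edgeR quasi-likelihood adjusted p = 0.00099).

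**Figure D5:**
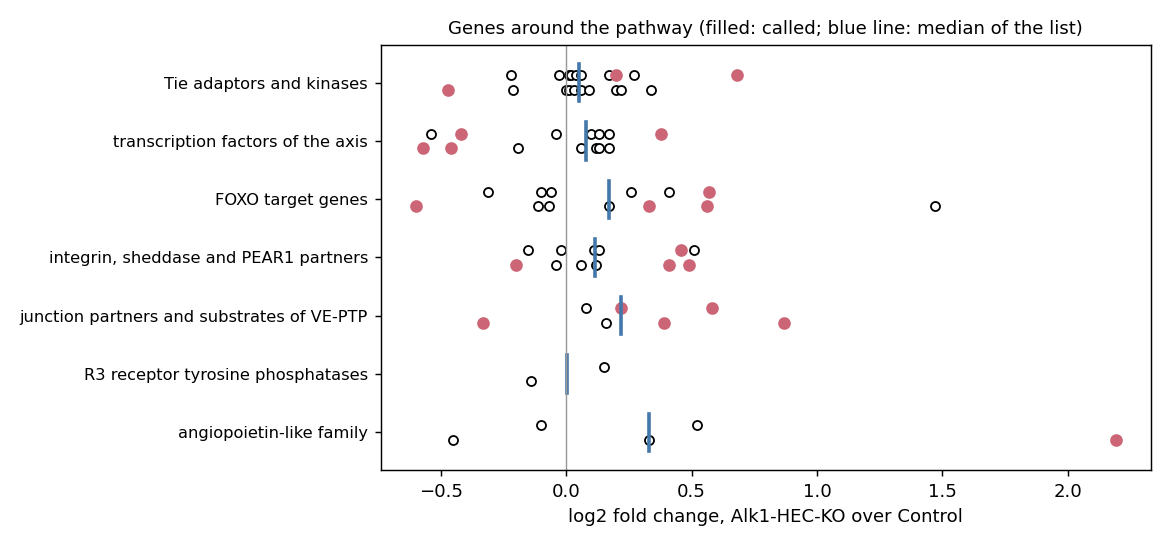
Log2 fold change (horizontal axis, knockout-labelled over control) of each tested gene in the 7 lists, filled where called, with the median of each list as a blue line. The medians lie between 0.01 and 0.33, and 5 of the 7 lists hold called genes on both sides of 0.

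For each tested member the genes whose log2 CPM followed it most closely over the 10 libraries, with group means taken off, were sought among 10210 genes. Tek was followed most closely by Cux2, Zfp629 and Fyco1 (r = 0.952, 0.951 and 0.937). Ptprb was followed by Tmem94, Frrs1 and Trmt9b (r = 0.979, 0.967 and 0.967), and Tie1 by Prdx6, Galk1 and Ubb (r = 0.933, 0.932 and 0.930). For Angpt1 the nearest were Bloc1s6, Mpdz and Api5 (r = 0.970, 0.948 and 0.928), and for Angpt2 they were Coa5, Abcc9 and Dcaf6 (r = 0.926, 0.919 and 0.919). Angptl6 was nearest to Vipr1, Prpf38b and Colec10 (r = 0.956, 0.951 and 0.937) and Svep1 to Rftn2, Pgrmc2 and Art3 (r = 0.916, 0.906 and 0.904). With 10 libraries and so many genes such values describe these libraries only.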

How the data were processed

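RNA of 5 control and 5 knockout-labelled libraries was examined, with groups and replicate numbers from the sample titles. The submitters' processing notes name Trim Galore 0.6.4, kallisto 0.4.6 and the mouse build GRCm38.p6. The authors deposited expected counts (estimated counts per gene, not all whole) and TPM, a separate table of each per library. How transcripts were summed to genes, and with which annotation, is not given in the sources used here. Of 55385 identifiers 55144 were found in GENCODE M21, of which 54487 had the same version.

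After rounding, counts went into edgeR 4.0.16 (R 4.3.3): filterByExpr with a minimum count of 10 (15043 genes left), TMM factors (0.94 to 1.04), the robust quasi-likelihood test of genotype alone, and Benjamini-Hochberg adjustment over all genes tested with a threshold of 0.05. CPM were computed from counts with TMM-scaled library sizes. Log2 CPM used a prior count of 2. Folds are from the fit. The procedure was also run on simulated data. The changes put in there were larger than those of Tek, Tie1 and Ptprb, so that run cannot show how well changes of their size are called. All pairs of libraries in a group differed by more than sampling noise (chi-square per degree of freedom 11.39 to 32.56), so all were kept. Totals of 23489494 to 23602771 counts leave little counting error for Tek, Tie1 and Ptprb and much for Angpt4 and Svep1.

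The members, lists, markers and tests were chosen with earlier results of these data known. Genes were named by rule: all members, Acvrl1, of each list up to 4 called genes with the largest change or, with none called, the 2 of smallest p, the 3 genes nearest each member among those with at least 5 CPM, and markers. Akt1, Akt2, Foxo1, Cdh5, Fgd5, Acta2, Myh11, Pf4, Alb, Cps1, Apoa1, Fgb, Dcn and Lum were named after their values were seen. So were the stellate cell and fibroblast markers set beside Angptl6. Alternatives were DESeq2 1.42.0, limma-voom (limma 3.58.1), no robust estimation, other size factors or filters, offsets for transcript length, a limma fit of log2 TPM (pseudocounts 1 and 0.1), a block for replicate number, each library left out, and controls 4 and 5 left out.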

Additional observations from a re-analysis of the deposited data

Results flagged for a closer look

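In 4 of 68 groups of 5 libraries examined, over 34 results, 1 library stood far from the other 4, and chance does this in about 5% of groups. Angptl6 was at 6.07 CPM in control 4, against 2.02 to 2.66 CPM in the other controls. Foxc1 was at 8.07 CPM in control 5, against 10.4 to 11 CPM in the other controls, and at 8.86 CPM in knockout-labelled library 1, against 6.02 to 6.78 CPM in the others of that group. Ptpro was at 1.89 CPM in knockout-labelled library 2, against 0.795 to 1.06 CPM in the others.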

How the results depend on the processing

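Angpt1, Tie1, Tek and Ptprb kept their direction and their call under all 22 alternatives, with log2 fold changes of 0.58 to 1.28, 0.28 to 0.41, -0.38 to -0.24 and -0.50 to -0.36. With limma on log2(TPM + 0.1) the median of all genes moved by 0.10, and Tie1 and Tek were at 0.41 and -0.24. Angptl6, not called in any, changed sign with limma-voom (0.05), library size alone (0.01), limma fitted to log2 TPM (0.10 at a pseudocount of 1, 0.14 at 0.1), the replicate block (0.04) and without controls 4 and 5 (0.35), and ranged from -0.17 to 0.33 with 1 library left out. Svep1, likewise not called, changed sign with limma-voom (-0.06), transcript length offsets (-0.09) and limma on log2(TPM + 0.1) (-0.01), and ranged from -0.24 to 0.26 with 1 library left out. Over all genes the calls fell from 2959 to 1940 without controls 4 and 5, where fewer libraries were tested, and those lower from 1366 to 866. By limma fitted to log2 TPM, 685 genes were lower at a pseudocount of 1 and 687 at 0.1. The cause was not tested. With 1 library left out there were 2315 to 2870 calls. With the replicate block 2567 genes and the same number of members, 4, were called. Same-numbered libraries deviated together with r from -0.20 to 0.35, and 3 of the 10 libraries (control 2 and knockout-labelled libraries 2 and 4) correlated best with their own number, so the numbers were not taken as pairs. Svep1 was not tested under the stricter filter. Depth limits Angpt4 and Svep1.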
